A study of Mus musculus with 61 samples.

Results

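The comparison described here is that of Del(sub-TAD1) stembryos with wild-type stembryos, over all genes outside the HoxD cluster. It used 11 of the 61 RNA-seq libraries of the study, which were 3 libraries of Del(sub-TAD1) and 3 of wild type at 96 h after aggregation, and 2 of Del(sub-TAD1) and 3 of wild type at 120 h. Wild-type libraries were taken from the same library set as the mutant ones of their stage. The 6 libraries at 96 h formed a set in which the mitochondrial mRNAs mt-Co2 and mt-Co3 were listed at between 0.303 and 2.65 and between 0.338 and 2.46 FPKM, and in the 12 other libraries used here, those of 120 h included, these stood at between 576 and 1369 and between 995 and 1583 FPKM. The FPKM unit divides the fragments of a gene by its transcript length and by the size of the library. At 96 h the wild type was replicate 4 together with both libraries of the time course, and at 120 h it was replicates 1 to 3. Of the genes in the tables, 15481 outside HoxD and the mitochondrial chromosome reached a mean of at least 1 FPKM in a group and were tested.

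Stembryos, also called gastruloids, are aggregates of mouse embryonic stem (mES) cells that receive a pulse of Chiron, an agonist of Wnt signalling, and then elongate into a structure that resembles the posterior body axis. The wild-type line was EmbryoMax 129/SVEV. The mutant lacks sub-TAD1, the portion of the telomeric regulatory domain next to HoxD that holds enhancers of Hoxd genes and the Mtx2 gene, and it carries a fosmid transgene that restores Mtx2, since embryos without Mtx2 die. Its mES cells were derived from mouse blastocysts, as were those of Del(CBS1-5), which lacks 5 CTCF binding sites within HoxD, whereas the wild type is an established line of another genetic background. Stembryos were collected without selection at 96 h, whereas from 108 h only elongating ones were taken. Each genotype was 1 line, each library was a pool of stembryos, and p-values measure the spread between these pools. The methods of the study speak of biological replicates, and neither they nor the labels say which cultures these came from. The effect of the deletion and that of the origin of the line cannot be told apart in these libraries.

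The notochord is a midline rod of mesoderm that arises from the node, expresses transcription factors such as Noto and Foxa2, and secretes Chordin, an antagonist of BMP, and Sonic hedgehog. Hedgehog proteins bind Patched receptors, and the receptor gene Ptch1 and the transcription factor gene Gli1 are themselves transcribed in cells that receive the signal. In the somites next to the notochord, hedgehog signalling favours the sclerotome, which is marked by Pax1, Pax9 and Nkx3-2.

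At 96 h, 583 of the 15481 genes were higher (3.77%) and 295 lower (1.91%) in Del(sub-TAD1) than in wild type, 878 in all (5.67%). At 120 h, 226 were higher (1.46%) and 119 lower (0.769%), 345 in all (2.23%). Both counts refer to limma's moderated test on log2(FPKM + 0.1), with p-values adjusted by the Benjamini-Hochberg method and a threshold of 0.05. By the same test, an unadjusted p under 0.05 was held by 3689 of the 15481 genes at 96 h and by 2365 at 120 h. The median log2 fold change over all genes was 0.01 at 96 h and 0.05 at 120 h. These 2 comparisons share no library, but the fit gives them 1 estimate of the spread of each gene, so they are not independent. In both, 117 genes (0.756% of those tested) passed in the same direction, 76 of them higher and 41 lower, against 2 in opposite directions. The 117 genes made up 13.3% of the calls at 96 h and 33.9% of those at 120 h. In all 117, every mutant library lay outside the range of the matched wild-type libraries at both stages, which over all genes tested held for 17.8% at 96 h and 44.3% at 120 h. The counts depended on single libraries. Without replicate 1 of Del(sub-TAD1) at 96 h the count at that stage rose to 2217, without replicate 4 of the wild type it was 2025. Without replicates 2 and 3 of the mutant and the time-course replicate 1 it fell to 459, 427 and 538. At 120 h it was 127 and 138 without either mutant library, 174 and 180 without wild-type replicates 1 and 2. Leaving out wild-type replicate 3 gave 739, and leaving out the 96 h mutant replicate 1 gave 597. The count of genes shared by both stages was 40 and 49 without either mutant library at 120 h. It was 69, 67 and 180 without wild-type replicates 1, 2 and 3 of that stage, and between 80 and 164 without any one of the 96 h libraries.

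**Figure D1:**
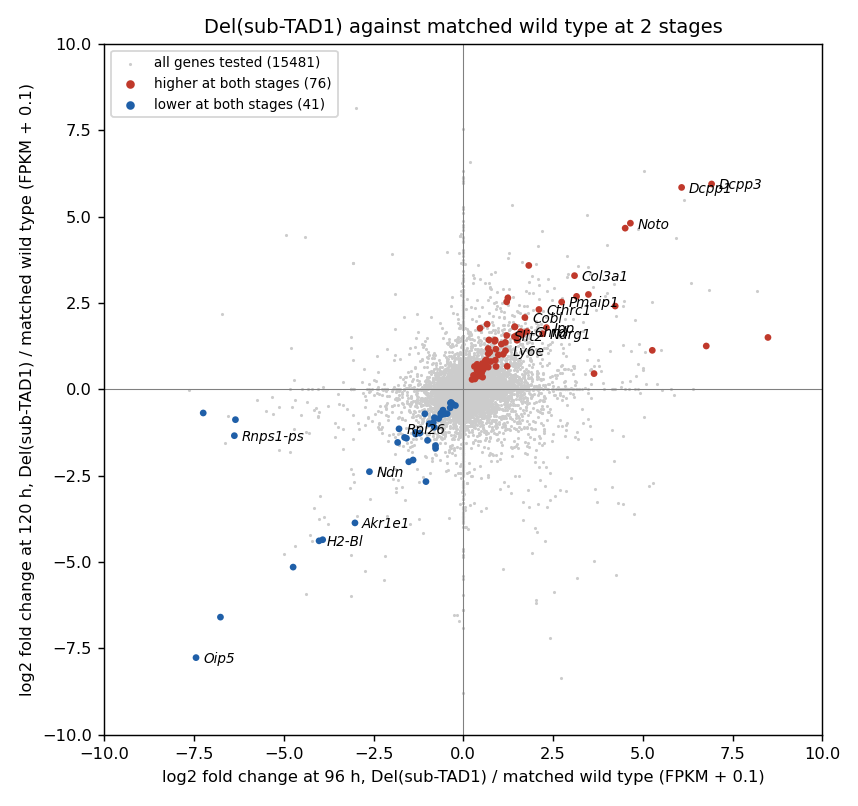
Each point is a gene, with its log2 fold change of Del(sub-TAD1) over matched wild type at 96 h on the horizontal axis and at 120 h on the vertical axis, both from log2(FPKM + 0.1). Grey points are the 15481 genes tested, red points the 76 genes called higher and blue points the 41 called lower at both stages, with Noto, Dcpp1 and Dcpp3 at the upper right and Oip5, H2-Bl and Akr1e1 at the lower left.

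Of the libraries in the fit, 3 were picked out after their values were seen, with no set criterion. Replicate 1 of Del(sub-TAD1) at 96 h correlated with replicates 2 and 3 at r = 0.949 over all genes, against 0.966 between those 2. Wild-type replicate 3 at 120 h correlated with replicates 1 and 2 at 0.919, against 0.956 between them. The third was a wild-type library at 96 h of the other set, which enters only the comparison of Del(CBS1-5). Wild-type replicate 4 at 96 h was not among the 3, although its correlations with the time-course libraries were 0.943 and 0.934, against 0.954 between those. The list of naive pluripotency genes, of which 16 were tested, summed to 129, 455 and 538 FPKM in the 3 mutant libraries at 96 h, with replicate 1 the lowest, and to between 89.2 and 114 in the wild type. At 120 h they summed to 37.8 and 41.7 in the mutant and to between 41.0 and 355 in the wild type, the highest being replicate 3. None of the 16 passed limma's test at either stage, with medians of 1.62 and -0.72. Of the 16, 7 and 0 had an unadjusted p under 0.05, against 3689 and 2365 of all 15481 genes. Nanog, a core factor of the pluripotent state, stood at 2.80, 23.0 and 27.5 FPKM in the mutant libraries at 96 h and at 3.24, 2.77 and 4.78 in the wild type. Without these 3 libraries, an alternative chosen after seeing the data, 3196 genes passed at 96 h, 2066 at 120 h and 543 at both. Depth, inferred from the steps that FPKM makes at low values, was between 19.1 M and 32.7 M fragments per library.

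Outside HoxD, whose own genes were left out of the counts, genes next to the deletion did not pass the test. Mtx2, deleted on chromosome 2 and supplied by the fosmid, stood at 25.3, 19.2 and 19.6 FPKM in the mutant at 96 h and at 26.8, 23.5 and 24.4 in the wild type. At 120 h it stood at 22.1 and 24.6 FPKM in the mutant and at 23.2, 22.6 and 24.8 in the wild type, so that the groups overlapped (log2 difference of -0.01, standard error 0.11, adjusted p = 1.0). Of the 10 genes tested within 1 Mb of HoxD on either side, 0 passed limma's test at either stage. Over all genes tested, 5.67% passed at 96 h and 2.23% at 120 h, and 10 genes are too few to be set apart from these shares. An unadjusted p under 0.05 was held by 3 of the 10 at 96 h and 1 at 120 h, against 3689 and 2365 of all 15481 genes. Of the 103 genes within 10 Mb, 3 passed at 96 h and 2 at 120 h, against the same 5.67% and 2.23% of all genes. The one shared by both stages was Cobll1, named after its values were seen, with log2 differences of 1.48 and 1.56 (adjusted p = 0.012 and 0.024), the second of which was lost without either mutant library or wild-type replicate 1 or 2 at 120 h (adjusted p between 0.092 and 0.22). Over the chromosomes, the share of genes called at 96 h was between 4.35% on chromosome 9 and 7.60% on chromosome 6. The shared genes, 0.756% of all genes tested, were found on all autosomes, from 1 of 827 on chromosome 9 to 13 of 774 on chromosome 17. On the X chromosome they were 0 of 611.

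A developmental regulator that changed at both stages was Noto (chromosome 6, 85423886 to 85428877 in mm10), which encodes a homeobox factor of the node and the notochord. Noto stood at 19.2, 15.5 and 11.6 FPKM in the 3 Del(sub-TAD1) libraries at 96 h, and at 0.670, 0.214 and 0.807 in the matched wild type. At 120 h it stood at 5.49 and 3.29 FPKM in the mutant and at 0, 0.0285 and 0.190 in the wild type. All 5 mutant libraries were thus above all wild-type libraries of their stage, by 4.66 on the log2 scale at 96 h (standard error 0.55, adjusted p = 0.00038) and 4.81 at 120 h (standard error 0.61, adjusted p = 0.0010), and the wild-type values are so low that these differences depend on the pseudocount of 0.1. The level was lower at 120 h than at 96 h in both genotypes, and the difference between the 2 effects did not pass the test (0.16, standard error 0.82, adjusted p = 0.96). In the wild-type time course, Noto was highest at 84 h, with 4.91 and 4.51 FPKM, and stood at 0.297 and 0 at 120 h. Of all 56 libraries other than Del(sub-TAD1), the highest value was that of 4.91 FPKM, which lies below all 3 mutant libraries at 96 h and between both at 120 h. Both calls held in all 24 alternative settings.

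Chrd (chromosome 16, 20733127 to 20742384), which encodes the secreted BMP antagonist Chordin, followed the same order. It stood at 6.58, 5.31 and 4.16 FPKM in the mutant at 96 h against 1.17, 1.17 and 2.28. The values at 120 h were 5.51 and 3.90 FPKM against 1.41, 1.31 and 1.44. Chrd was 3.42 times higher at 96 h (log2 difference 1.78, standard error 0.23, adjusted p = 0.00075) and 3.19 times higher at 120 h (1.67, standard error 0.26, adjusted p = 0.0045), on the scale of FPKM + 0.1. Without mutant replicate 1 the call at 120 h was lost (adjusted p = 0.081). Slit2, a secreted guidance protein made by midline cells among others, rose by 1.21 and 1.56 on the log2 scale (adjusted p = 0.015 and 0.010). Its values at 120 h were 9.84 and 8.61 FPKM against 2.89, 2.74 and 3.59, and that call was lost without either mutant library (adjusted p = 0.11 and 0.070), as was the call at 96 h without mutant replicate 2 (adjusted p = 0.051).

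Noto belongs to a list of endoderm and notochord genes, of which 15 were tested. Over all genes tested, 3.77% were higher and 1.91% lower at 96 h, and 1.46% and 0.769% at 120 h. Counts of this and all other lists are to be read beside these shares. At 96 h 2 of the 15 were higher and 0 lower, Noto and Apela, with a median of 1.23 against 0.01 over all genes. At 120 h 5 were higher and 0 lower, Noto, Foxa1, Spink1, Krt8 and Cldn6, with a median of 2.61 against 0.05. Apela, a peptide hormone gene, stood at 14.5, 14.9 and 16.5 FPKM at 96 h against 3.77, 3.15 and 8.71. Its call was lost without mutant replicate 2 or 3 or time-course replicate 1 (adjusted p between 0.054 and 0.065). Foxa1, a forkhead factor of endoderm and midline, stood at 5.25 and 3.71 FPKM in the mutant at 120 h and at 0.374, 0.570 and 0.582 in the wild type (log2 difference 2.91, standard error 0.47, adjusted p = 0.0065). Foxa2, its relative in the notochord, stood at 6.31 and 3.68 FPKM against 0.264, 0.258 and 1.09 and did not pass the test (adjusted p = 0.065). The keratin gene Krt8 stood at 25.9 and 22.5 FPKM against 2.36, 2.11 and 9.67, and the tight junction gene Cldn6 at 42.0 and 35.9 against 3.77, 3.43 and 12.5. In both, wild-type replicate 3 was the highest control and the groups did not overlap. Each of the calls at 120 h other than Noto was lost without at least 1 mutant library, with an adjusted p of 0.093 for Foxa1, 0.12 for Spink1, 0.24 for Krt8 and 0.21 for Cldn6 without replicate 1. Wild-type replicates 1 and 2 each also ended the calls of Krt8 (adjusted p = 0.14) and Cldn6 (adjusted p = 0.11), and mutant replicates 2 and 3 at 96 h that of Krt8 (adjusted p = 0.052).

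The levels of these endoderm genes also differed widely between wild-type libraries. At 96 h the time-course replicate 2 was high, with 9.94 FPKM of the endoderm factor Sox17 against 0.422 and 1.99 in the other 2 controls and 6.89, 5.04 and 4.18 in the mutant, and the list summed to 863 FPKM in it, above the 418 to 790 of the mutant. At 120 h, 3 more wild-type libraries lie outside the matched set. In one of them, time-course replicate 1, Foxa1 stood at 3.58 FPKM, Krt8 at 21.4 and Cldn6 at 54.4, which is within or near the range of the mutant, whereas in the other 2 Foxa1 stood at 1.34 and 0.495. With all wild-type libraries of the stage as controls, time course included, the calls of Foxa1, Krt8 and Cldn6 were lost (adjusted p = 0.14, 0.18 and 0.27). Noto (0.297 FPKM) and Chrd (2.71) stayed below the mutant in that library, and their calls at 120 h held (adjusted p = 0.0099 and 0.011). In pools of stembryos, more cells of a type and more RNA per cell cannot be told apart.

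**Figure D2:**
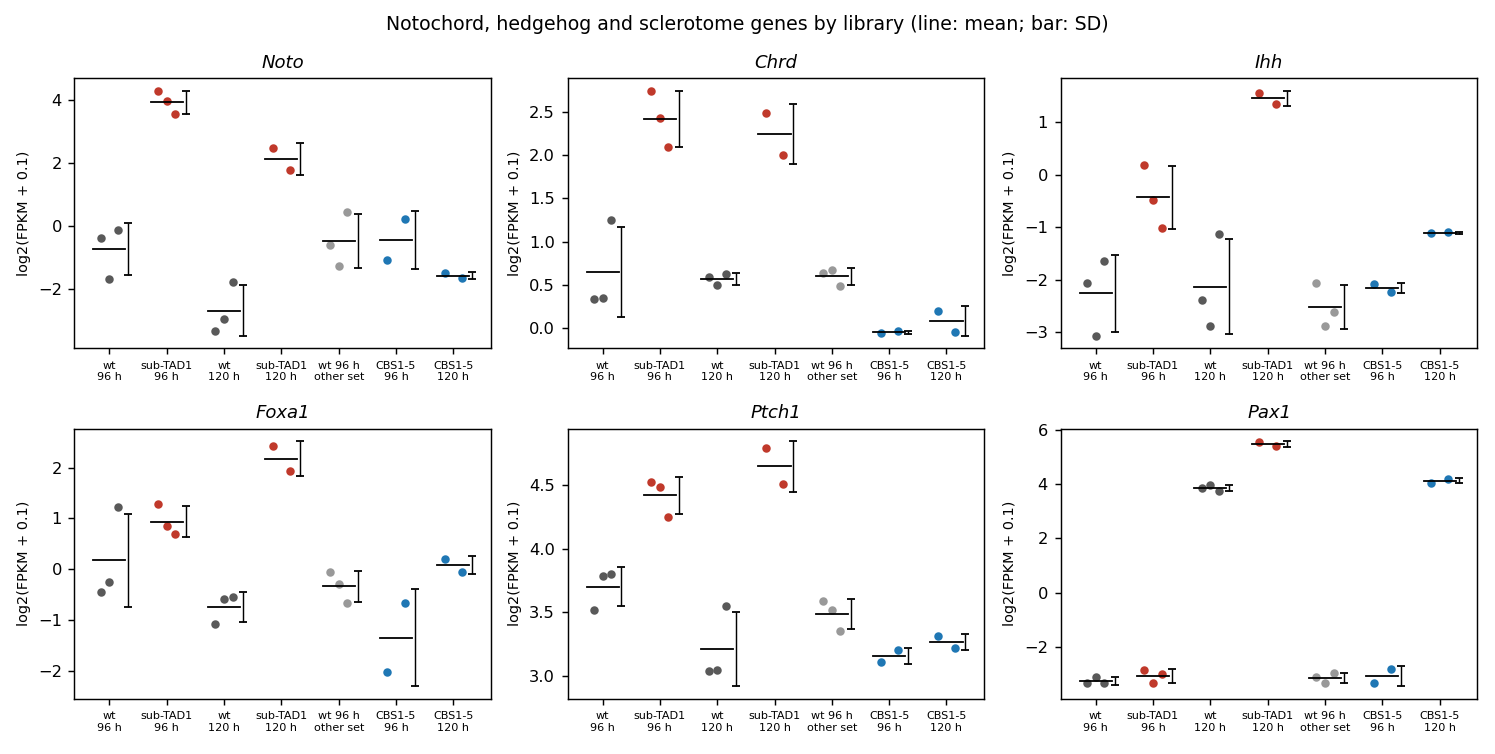
Each panel gives 1 gene, with log2(FPKM + 0.1) on the vertical axis and 7 groups of 2 or 3 libraries on the horizontal axis. Points are libraries, lines are means and bars are standard deviations, with Del(sub-TAD1) in red, wild type in grey and Del(CBS1-5) in blue. Noto and Chrd are higher in all 5 Del(sub-TAD1) libraries than in any library of the other groups, whereas for Foxa1 1 wild-type library at 96 h lies within the mutant range.

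Genes of hedgehog signalling were named after their values were seen, and they form no list that was tested. Among the ligands, Ihh, which encodes Indian hedgehog, stood at 2.84 and 2.45 FPKM in the mutant at 120 h and at 0.0910, 0.0356 and 0.356 in the wild type (log2 difference 3.59, standard error 0.51, adjusted p = 0.0024), and at 96 h it rose by 1.82 (adjusted p = 0.039). The call at 96 h ended when any 1 of 6 libraries was left out, mutant replicates 1 and 2 and time-course replicate 1 at 96 h, and both mutant libraries and wild-type replicate 1 at 120 h (adjusted p between 0.054 and 0.12). Shh, the ligand of the notochord, was below the filter and not tested, with 1.18 and 0.697 FPKM at 120 h against 0.0313, 0.107 and 0.262. The receptor gene Ptch1 stood at 22.8, 22.3 and 18.9 FPKM at 96 h against 11.4, 13.7 and 13.8. It stood at 27.4 and 22.6 FPKM at 120 h against 8.12, 8.17 and 11.6. The groups did not overlap at either stage, and Ptch1 rose by 0.72 (adjusted p = 0.014) and 1.43 (adjusted p = 0.00031). Of the transcription factors, Gli1 stood 1.35 and 1.78 higher and passed at neither stage (adjusted p = 0.094 in both). Gli2 fell at 96 h by 0.61 (adjusted p = 0.042). That call ended without any 1 of 7 libraries, which were mutant replicates 1 and 2 and time-course replicate 1 at 96 h and, at 120 h, both mutant libraries and wild-type replicates 1 and 2 (adjusted p between 0.059 and 0.11). At 120 h the wild-type time-course replicate 1, with its high endoderm genes, held 2.30 FPKM of Ihh and 25.2 of Ptch1, against 0.235 and 11.6 in replicate 4 and 0.102 and 9.81 in time-course replicate 2. Neither gene passed at either stage with all wild-type libraries as controls, with adjusted p = 0.095 and 0.077 at 96 h and 0.090 and 0.11 at 120 h for Ihh and Ptch1.

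Lmx1a and Bicc1 were named after their values were seen. Lmx1a, which encodes a LIM homeobox factor of the roof plate and floor plate, stood at 1.61, 1.38 and 1.21 FPKM at 96 h against 0.181, 0.0145 and 0.0457. At 120 h the mutant stood at 0.998 and 0.384 FPKM against 0.0138, 0 and 0.0258. It rose by 3.15 and 2.69 on the log2 scale (adjusted p = 0.00058 and 0.0066), and both calls held with all wild-type libraries as controls, but that at 120 h was lost without mutant replicate 1 (adjusted p = 0.11). Bicc1, an RNA-binding protein gene expressed in the node, rose by 1.11 and 1.02 (adjusted p = 0.0054 and 0.024), the second of which was lost without either mutant library (adjusted p = 0.21 and 0.13) or wild-type replicate 1 or 2 (adjusted p = 0.092 and 0.074).

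Of 16 somite and muscle progenitor genes tested, 4 were higher at 120 h (against 1.46% of all genes) and 0 lower (against 0.769%). Pax1, Pax9 and Nkx3-2 were among the 4. At 96 h 0 passed (against 5.67% of all genes), and Pax1 was then at or below 0.042 FPKM in all 6 libraries. Pax1, the marker of the sclerotome, stood at 46.6 and 41.8 FPKM in the mutant and at 14.4, 15.6 and 13.2 in the wild type, a rise by 1.61 on the log2 scale (standard error 0.18, adjusted p = 0.00031) that held in all 24 settings. Nkx3-2, a homeobox gene of the sclerotome, stood at 2.63 and 2.46 FPKM against 1.21, 1.13 and 0.930, although it did not pass with a trended and robust variance (adjusted p = 0.11). In the other 3 wild-type libraries at 120 h, Pax1 stood at 26.4, 25.1 and 15 FPKM, below the mutant. The call of Pax9 was lost without either mutant library (adjusted p = 0.23 and 0.28), wild-type replicate 1 or 2 (adjusted p = 0.16 and 0.17) or mutant replicate 2 or 3 at 96 h (adjusted p = 0.056). At 120 h all mutant libraries lay above all matched wild-type libraries in 8 of the 16 and below them in 5, where 44.3% of all genes did not overlap in either direction. Among the latter, none of which passed, were Uncx, a homeobox gene of the posterior sclerotome, at 9.85 and 10.03 FPKM against 14.5, 15.5 and 12.2, and the dermomyotome gene Pax3 at 15.5 and 18.3 against 27.6, 26.4 and 26.0. Tcf15, of the epithelial somite, stood at 67.5 and 78.6 FPKM against 99.7, 104 and 94.4, and the list had a median of 0.48. Among genes of the presomitic mesoderm and the segmentation clock, 3 of 16 were lower at 120 h (against 0.769% of all genes) and 0 higher, with a median of -0.71. They were the Notch receptor gene Notch1, its ligand Dll1 and the glycosyltransferase gene Lfng. Lfng stood at 10.9 and 12.4 FPKM against 25.5, 22 and 24.6 (log2 difference -1.04, adjusted p = 0.037). The 3 calls were lost without either mutant library or either of wild-type replicates 1 and 2 (adjusted p between 0.053 and 0.34). Those of Dll1 and Lfng were lost without replicate 3 (adjusted p = 0.064 and 0.052), and that of Dll1 without mutant replicate 2 or 3 or time-course replicate 1 at 96 h (adjusted p between 0.051 and 0.065). None passed with all wild-type libraries as controls (adjusted p = 0.16 for Dll1, 0.13 for Notch1 and 0.099 for Lfng).

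Hox genes of the other clusters were lower where they passed, which was mostly at 120 h. In this line the study normalized its Hoxd and Hoxa values of 120 h for differences in growth speed, which was not done here. Hoxb1, an early gene of its cluster, stood at 20.6 and 22.4 FPKM in the mutant at 120 h against 40.3, 40.0 and 42.3 in the wild type, and fell by 0.92 on the log2 scale (standard error 0.09, adjusted p = 8.5e-05). At 96 h it stood at between 110 and 126 FPKM against 107 to 119 and did not pass. Among genes of late activation, Hoxa10 stood at 0.544 and 0.583 FPKM at 120 h against 3.93, 3.59 and 4.97 (-2.67, adjusted p = 0.00011), and Hoxc10 at 1.08 and 1.49 against 8.04, 6.72 and 12.8 (-2.71, standard error 0.27, adjusted p = 0.00016). Hoxa10 also passed at 96 h, near the floor, with means of 0.0603 FPKM against 0.217 (-1.04, adjusted p = 0.023). That call was lost without time-course replicate 1 (adjusted p = 0.055). Over the clusters, 2 of 9 Hoxa, 1 of 9 Hoxb and 1 of 6 Hoxc genes passed at 120 h, all lower, with medians of -0.66, -0.32 and -0.99. Of all genes tested, 0.769% were lower at that stage. The wild-type time-course replicate 1, with 1.81 FPKM of Hoxc10 and 0.812 of Hoxa10, was near the mutant, and time-course replicate 2 stood at 25.2 and 8.53, so that the spread between wild-type pools at this stage was wide. The call of Hoxc10 was lost with all wild-type libraries (adjusted p = 0.061).

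In the spinal cord list 2 of 14 genes were lower at 96 h, the progenitor factors Sox1 and Sox3, and 2 were higher at 120 h, Neurog2 and Nkx6-1, with medians of -0.41 and -0.05. Of all genes tested, 5.67% passed at 96 h and 2.23% at 120 h, and 3689 and 2365 of the 15481 had an unadjusted p under 0.05. Neurog2, a proneural factor, stood at 1.31 and 0.817 FPKM at 120 h against 0.0610, 0.0994 and 0.0758. The call of Sox1 was lost without mutant replicate 2 or 3 (adjusted p = 0.061 and 0.071), and that of Nkx6-1 without mutant replicate 1 (adjusted p = 0.084). Of 10 endothelial and blood genes 1 was higher at 96 h and 3 at 120 h, Cdh5, Cd34 and Emcn, all under 2 FPKM, and time-course replicate 1 of the wild type held 9.06 FPKM of Cdh5 against 0.694 and 0.679 in the mutant. None of the 3 passed at 120 h with all wild-type libraries (adjusted p = 0.81, 0.64 and 0.53). The call of Cd34 was also lost without either mutant library (adjusted p = 0.10 and 0.082). That of Cdh5 at 96 h was lost when any 1 of 9 libraries was left out, all but time-course replicate 2 and wild-type replicate 3 at 120 h (adjusted p between 0.053 and 0.13). Of 16 epiblast and primitive streak genes Mixl1 was higher at 96 h and 0 passed at 120 h (2 had an unadjusted p under 0.05). That call ended when any 1 of 7 libraries was left out, mutant replicates 2 and 3, wild-type replicate 4 and time-course replicate 1 at 96 h and, at 120 h, both mutant libraries and wild-type replicate 2 (adjusted p between 0.056 and 0.12). Of 15 genes of neuro-mesodermal progenitors Hes3 was lower at 96 h (medians of 1.24 and -0.20, and -0.16 and -0.16). T, the Brachyury gene of streak, notochord and tail bud, stood at 105, 166 and 166 FPKM at 96 h against 65.3, 107 and 70.4 and did not pass (adjusted p = 0.060). Among 4 genes of intermediate mesoderm, Wt1 was higher at 96 h and lower at 120 h, calls that were lost without mutant replicate 3 or time-course replicate 1 (adjusted p = 0.059 and 0.054) and without either mutant library or wild-type replicate 1 or 2 (adjusted p between 0.055 and 0.14). By limma, 0 of 8 primordial germ cell genes and 0 of 7 cardiac genes passed (medians of 1.33 and 0.43, and -0.11 and 0.02), with 6 and 1 of the former and 1 and 0 of the latter at an unadjusted p under 0.05. The Y-linked genes (3 tested) and those of X inactivation (2 tested) held 0 calls and 0 at an unadjusted p under 0.05, and 1 protocadherin beta gene was tested and did not pass.

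**Figure D3:**
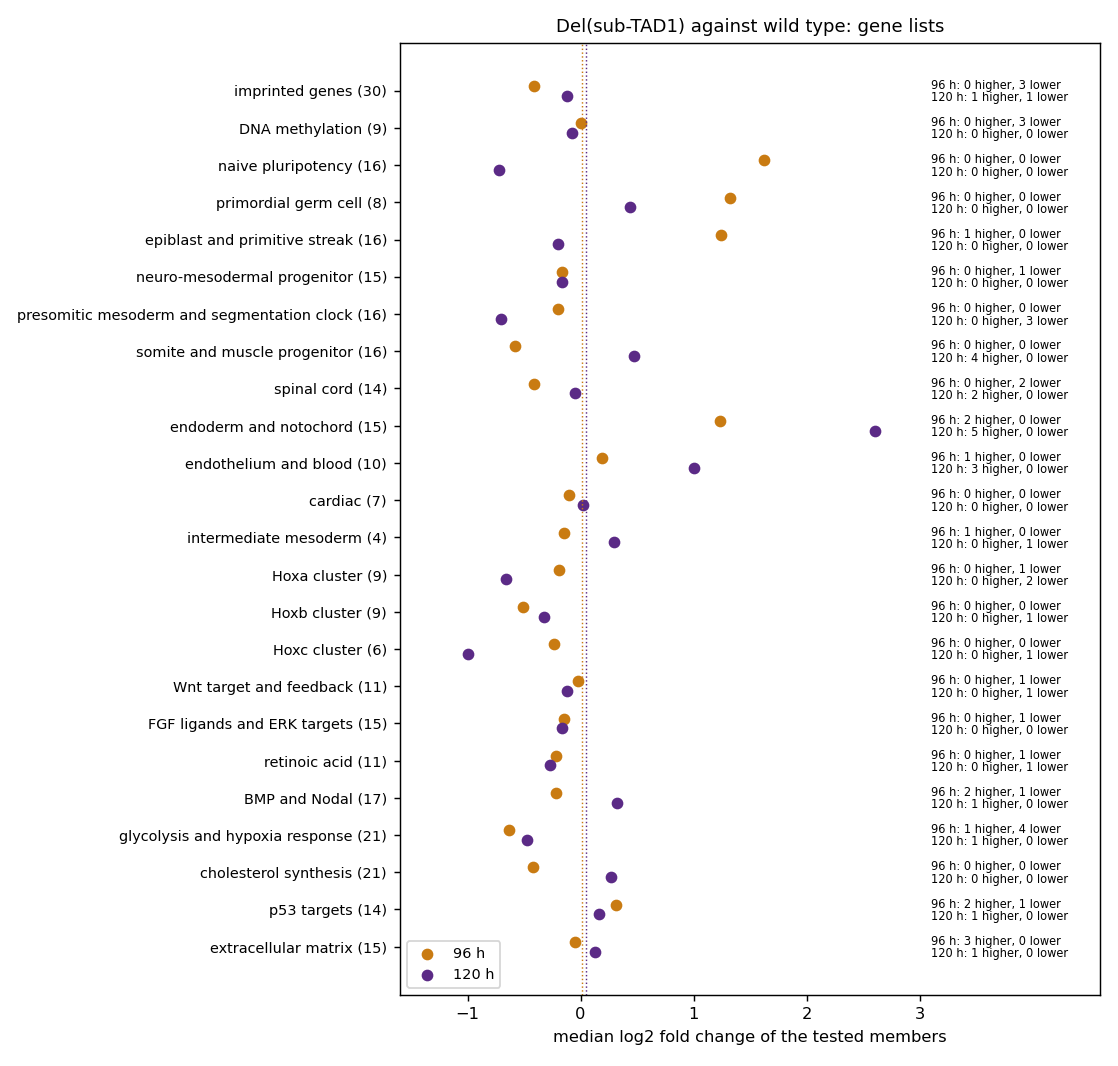
Each row is a gene list with the number of members tested in brackets, and the horizontal axis gives the median log2 fold change of Del(sub-TAD1) over matched wild type at 96 h (orange) and 120 h (purple). The text at the right gives how many members were called in each direction, and dotted lines mark the medians over all genes tested. Endoderm and notochord genes have the largest median, 2.61 at 120 h.

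The signalling and metabolic lists are set against the 5.67% of all genes called at 96 h and the 2.23% at 120 h. In the BMP and Nodal list Chrd and Bmp7 were higher and Msx1 lower of 17 genes at 96 h, and Chrd alone passed at 120 h (medians of -0.22 and 0.32). Lef1, a nuclear effector of Wnt signalling, was the 1 gene called of 11 in the Wnt list at each stage, and it fell by 0.45 at 96 h (adjusted p = 0.019) and by 0.70 at 120 h (adjusted p = 0.0043), with medians of -0.02 and -0.12 for the list. Both calls were lost when all wild-type libraries served as controls (adjusted p = 0.54 and 0.12). So was that at 96 h without mutant replicate 2 or 3 (adjusted p = 0.069 and 0.079) and that at 120 h without mutant replicate 1 (adjusted p = 0.065). Of 15 FGF ligands and ERK targets Spry2 was lower at 96 h, and of 11 retinoic acid genes 1 was lower at each stage, Dhrs3 at 120 h (medians of -0.15 and -0.16, and -0.21 and -0.27). Of 21 genes of glycolysis and the hypoxia response, Pgam1, P4ha2, Pfkl and Pkm were lower and Ndrg1 higher at 96 h, and Ndrg1 alone passed at 120 h (medians of -0.63 and -0.48), a call lost without either mutant library (adjusted p = 0.096 and 0.13). In 15 of the 21 all mutant libraries lay below all matched wild-type libraries at 96 h and in 13 at 120 h, where over all genes the groups did not overlap in 17.8% and 44.3%. An unadjusted p under 0.05 was held by 16 of the 21 at 96 h and by 10 at 120 h, against 3689 and 2365 of all 15481 genes. By limma, 0 of 21 genes of cholesterol synthesis passed (medians of -0.42 and 0.27), with 13 and 1 at an unadjusted p under 0.05. Of 14 targets of p53, Pmaip1 and Sesn2 were higher and Aen lower at 96 h, and Pmaip1 alone passed at 120 h (medians of 0.31 and 0.16). Pmaip1, which encodes the BH3-only protein Noxa, stood at 35.3, 34.5 and 36.0 FPKM at 96 h against 6.63, 4.65 and 4.53. Its levels at 120 h were 18.3 and 23.6 FPKM against 2.44, 2.56 and 6.87. The mutant was 6.68 and 5.77 times higher on the scale of FPKM + 0.1 (adjusted p = 0.0012 and 0.0073), and the second call was lost without replicate 2 (adjusted p = 0.098). Of 15 genes of the extracellular matrix, Col1a1, Col3a1 and Col6a1 were higher at 96 h and Col3a1 at 120 h (medians of -0.05 and 0.13). Col3a1, a fibrillar collagen, stood at 0.771, 2.98 and 3.41 FPKM at 96 h against 0.254, 0.179 and 0.0514. In the 120 h libraries it stood at 19.5 and 16.8 FPKM against 1.73, 1.87 and 1.69, with the call at 120 h lost without mutant replicate 1 (adjusted p = 0.071). Among the genes of these lists, the calls at 96 h of Bmp7, Msx1, Spry2, Pgam1, Pfkl, Pkm, Sesn2 and Col6a1 each ended without mutant replicate 2 or mutant replicate 3 (adjusted p between 0.051 and 0.15), all of these but Sesn2 also without at least 1 further library, and that of Dhrs3 at 120 h without mutant replicate 1 (adjusted p = 0.096).

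Genes of DNA methylation and imprinting were lower where they passed at 96 h. The shares of all genes that passed were 5.67% at 96 h and 2.23% at 120 h. The maintenance methyltransferase gene Dnmt1, its cofactor Uhrf1 and the de novo enzyme gene Dnmt3a fell by 0.27, 0.29 and 0.28 at 96 h (adjusted p = 0.011, 0.031 and 0.043), 3 of 9 in the list, and 0 passed at 120 h (medians of 0.00 and -0.07). With all wild-type libraries outside the time course as controls, the differences of Dnmt1 and Dnmt3a turned to 0.041 and 0.13, and that of Uhrf1 was -0.13, none of which passed (adjusted p = 0.79, 0.42 and 0.21). The calls of Uhrf1 and Dnmt3a ended without mutant replicate 2 or 3 or time-course replicate 1 at 96 h (adjusted p between 0.073 and 0.15), and that of Dnmt3a also without time-course replicate 2 (adjusted p = 0.098) or mutant or wild-type replicate 1 or 2 at 120 h (adjusted p between 0.062 and 0.064). Of 30 imprinted genes, Ndn, Mest and Magel2 were lower at 96 h and 0 higher, and at 120 h Ndn was lower and Dlk1 higher (medians of -0.41 and -0.12). The call of Mest was lost without mutant replicate 2 (adjusted p = 0.051), and that of Dlk1 without 5 libraries, mutant replicate 3 at 96 h and replicates 1 and 2 of both genotypes at 120 h (adjusted p between 0.051 and 0.26). Ndn (chromosome 7, 62346569 to 62350262), the paternally expressed gene of Necdin in the Prader-Willi region, stood at 3.72, 3.19 and 2.99 FPKM at 96 h against 15.6, 27.3 and 20.6. The values at 120 h were 4.21 and 4.0 FPKM against 26.0, 23.2 and 17.3. It was 6.13 and 5.21 times lower on the scale of FPKM + 0.1 (log2 differences of -2.62 and -2.38, standard errors 0.19 and 0.21, adjusted p = 3.7e-06 and 4.9e-05). All 5 mutant libraries lay below all 56 other libraries of the study, of which the lowest was at 7.84 FPKM. Magel2, its neighbour in that region, stood at 1.39, 1.57 and 1.46 FPKM at 96 h against 3.17, 3.91 and 4.31. It stood at 0.975 and 1.04 FPKM at 120 h against 0.771, 0.755 and 0.964, so that it was lower at 96 h alone, with a difference between stages of 1.56 (adjusted p = 0.020).

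Beyond the lists, the largest rises at both stages were those of Dcpp1 and Dcpp3, secreted protein genes of a tandem family on chromosome 17. Dcpp3 stood at 25.3, 9.06 and 7.49 FPKM in the mutant at 96 h and at 5.70 and 6.45 at 120 h, and it was listed at 0 in all 6 matched wild-type libraries and at no more than 0.109 in any of the 56 other libraries. Dcpp1 stood at 23.3, 8.31 and 6.4 FPKM and at 5.44 and 5.88, and was listed at 0 in 5 of the 6 controls and at 0.311 in the sixth. Their levels rise and fall together from library to library. The 2 genes are near copies, and how well uniquely mapped reads separate them is uncertain and was not tested. The 200 bases before their start sites, in RefSeq's promoter table on GRCm38.p6, plus strand, show this likeness and are printed 5′ to 3′ with capitals where an alignment of the 2 promoters differs.

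Dcpp1, chr17:23880676-23880875: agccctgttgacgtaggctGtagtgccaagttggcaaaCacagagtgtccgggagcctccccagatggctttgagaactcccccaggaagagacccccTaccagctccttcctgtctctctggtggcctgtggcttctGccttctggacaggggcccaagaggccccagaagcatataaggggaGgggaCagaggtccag

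Dcpp3, chr17:23917258-23917457: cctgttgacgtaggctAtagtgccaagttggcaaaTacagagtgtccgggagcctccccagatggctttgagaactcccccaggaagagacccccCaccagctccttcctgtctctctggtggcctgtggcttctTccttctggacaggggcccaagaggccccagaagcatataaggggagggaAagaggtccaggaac

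Over the whole promoters, with 50 bases after the start, 289 of 297 aligned positions were identical (97.3%). Another gene of the family, Dcpp2, was listed at 0 in all 5 mutant libraries. Of the 13 genes of chromosome 17 called at both stages there were also 2 class I genes of the major histocompatibility complex with opposite changes, H2-Bl, lower by 4.02 and 4.38, and H2-T24, higher by 3.49 and 2.75. H2-Bl stood at 0.583, 1.65 and 1.52 FPKM in the mutant at 96 h against 16.2, 45.5 and 11. At 120 h the mutant stood at 0.513 and 0.476 FPKM against 13.8, 12.6 and 10.7. Class I genes have close relatives, and the values of both are uncertain for that reason.

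At the lower end, Oip5, a gene of centromere assembly, was listed at 0 in all 5 mutant libraries. It stood at 13.3, 18.2 and 21.6 FPKM in the wild type at 96 h and at 24.5, 26.1 and 15.9 at 120 h, but it was also listed at 0 in 5 of the 56 other libraries, wild type at 120 h and 132 h among them, so that its 0 may be a failed estimate. Cufflinks gave zeros of this gene and of Myl3 the status OK, and without reads the question could not be settled. Akr1e1, an aldo-keto reductase gene, stood at 0.536, 0.369 and 0.429 FPKM in the mutant at 96 h and at 0.304 and 0.307 at 120 h, against 4.41, 3.91 and 4.54 and against 5.68, 5.42 and 6.37. It fell by 3.02 and 3.87 on the log2 scale (standard errors 0.15 and 0.16, adjusted p = 4.6e-08 and 2.2e-08). Rpl26, a gene of the large ribosomal subunit, stood at 577, 462 and 484 FPKM at 96 h against 1769, 1782 and 1695. Its levels at 120 h were 916 and 940 FPKM against 2121, 2117 and 1912. It has many processed copies in the genome, and what uniquely mapped reads show of it is uncertain. The remaining genes named at the lower end were Lyplal1, Trmo, Adi1, Cox18 and Tbc1d23, which fell by between 0.61 and 2.04 on the log2 scale, and the pseudogene Rnps1-ps. At 120 h the calls of Lyplal1, Trmo, Adi1, Cox18 and Rnps1-ps were lost without either mutant library (adjusted p between 0.053 and 0.28), whereas that of Tbc1d23 held. At 96 h that of Cox18 was lost without time-course replicate 1 (adjusted p = 0.064), and that of Lyplal1 without mutant replicate 2 or 3 or either time-course replicate (adjusted p between 0.053 and 0.081).

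**Figure D4:**
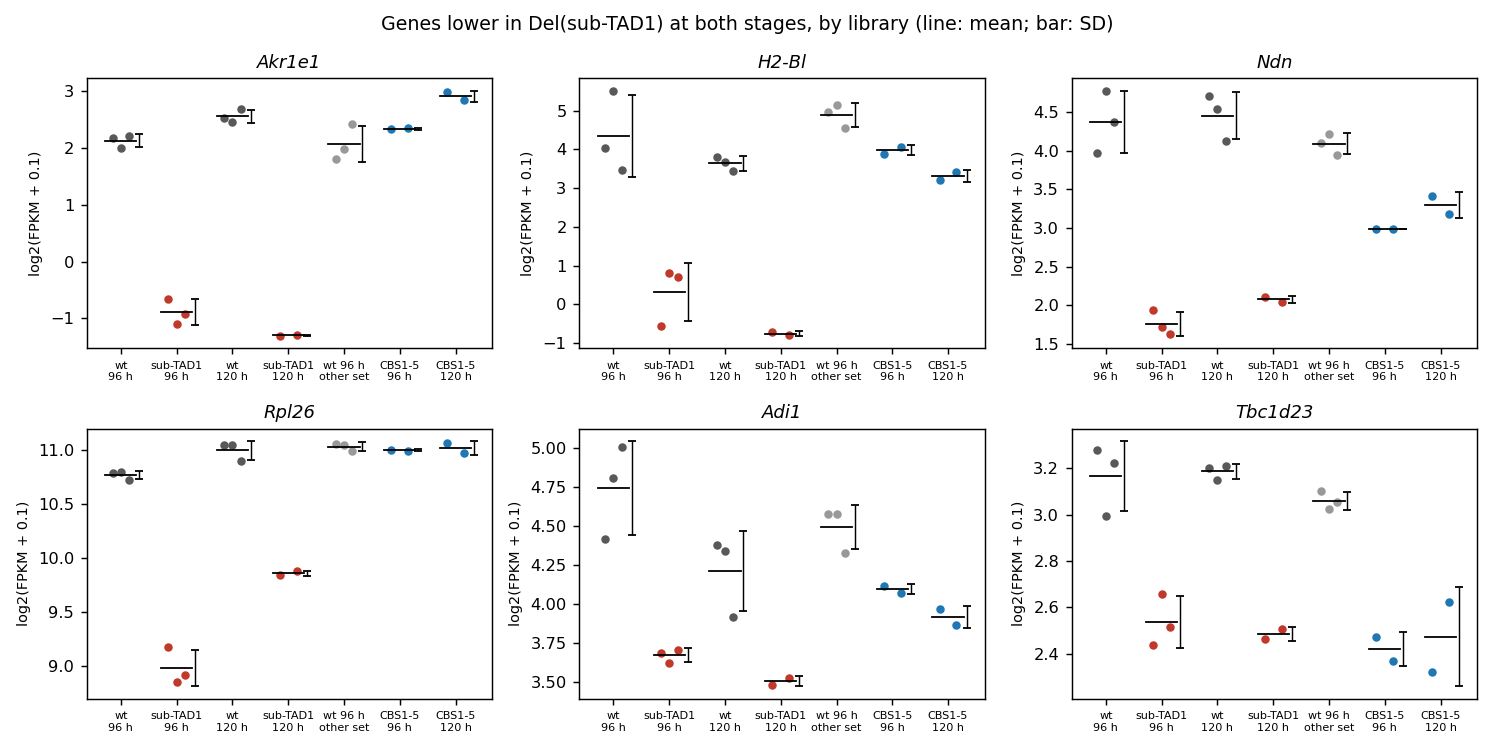
Each panel gives 1 gene that was lower in Del(sub-TAD1) at both stages, with log2(FPKM + 0.1) on the vertical axis and 7 groups of 2 or 3 libraries on the horizontal axis. Points are libraries, lines are means and bars are standard deviations. Akr1e1 is at or below 0.536 FPKM in all 5 Del(sub-TAD1) libraries and at or above 3.41 in all others shown, and in Ndn and Adi1 Del(CBS1-5) lies between Del(sub-TAD1) and the wild-type group means. In Tbc1d23 the libraries of both mutant lines lie below all wild-type libraries shown.

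To see which of these differences the other line of blastocyst origin shares, Del(CBS1-5) was compared with wild-type replicates 1 to 3 at 96 h, a comparison with no library in common with that of Del(sub-TAD1) at 96 h. In it 311 genes passed (2.01%), 183 higher and 128 lower. Since the fit shares 1 estimate of the spread, that count moved with libraries of Del(sub-TAD1) and its controls left out 1 at a time, from 182 without Del(sub-TAD1) replicate 1 at 120 h to 666 without its replicate 1 at 96 h, with 550 and 494 without wild-type replicate 3 at 120 h and time-course replicate 2. Of the 117 genes shared by both stages of Del(sub-TAD1), 25 were among these, 24 of them in the same direction, which is 20.5% of the 117 and 7.72% of the 311. Among them was Ipp (chromosome 4, 116507549 to 116538243), which encodes an actin-binding protein with kelch repeats. Ipp stood at 51.4, 41.1 and 41.4 FPKM in Del(sub-TAD1) at 96 h against 9.17, 8.67 and 8.66, and at 34.6 and 33.7 in Del(CBS1-5) against 7.66, 7.67 and 7.85. Over the whole study it lay between 28.3 and 54.7 FPKM in the 11 libraries of these 2 lines and between 6.19 and 10.2 in all 50 others. The same separation held for Rpl13a and 2 unnamed gene models that were higher and for 1 that was lower, 5 of the 24 in all, and the other 19 overlapped the remaining libraries. Tbc1d23, Ndrg1, Cobl, Ly6e, Col3a1 and Ndn were also among the 24, although the calls at 120 h in Del(sub-TAD1) ended for Cobl without replicate 1 (adjusted p = 0.087) and for Ly6e without either library (adjusted p = 0.056 and 0.12). Ndn stood at 7.85 and 7.84 FPKM in Del(CBS1-5) against 17.0, 18.5 and 15.3. For Noto the difference in Del(CBS1-5) was 0.05 (standard error 0.61, adjusted p = 1.0), and for Chrd it was -0.65 (standard error 0.26, adjusted p = 0.18).

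**Figure D5:**
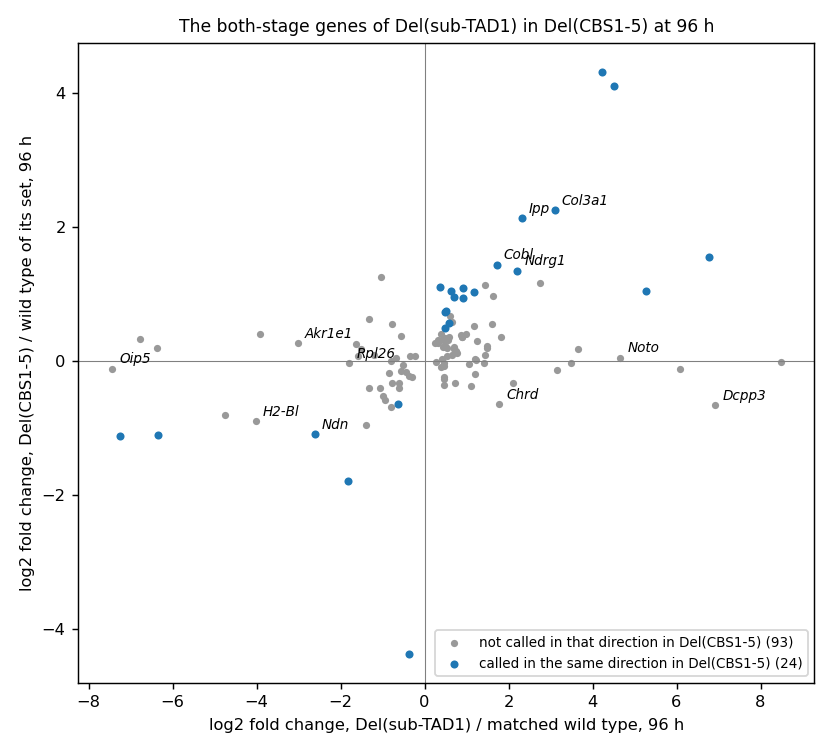
Each point is 1 of the 117 genes called at both stages in Del(sub-TAD1), with its log2 fold change at 96 h on the horizontal axis and that of Del(CBS1-5) over the wild type of its set at 96 h on the vertical axis. Blue points are the 24 genes called in the same direction in Del(CBS1-5), Ipp, Col3a1, Cobl, Ndrg1 and Ndn among them, and Noto, Chrd, Dcpp3, Akr1e1 and Rpl26 are among the 93 others in grey.

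The lines can also be compared directly at 120 h, where both are in 1 set and both came from blastocysts. Here 444 genes passed (2.87%), 239 higher and 205 lower in Del(sub-TAD1), and 144 and 152 passed without either Del(sub-TAD1) library. The Del(sub-TAD1) libraries are those compared with wild type. Noto stood at 5.49 and 3.29 FPKM in Del(sub-TAD1) and at 0.252 and 0.215 in Del(CBS1-5) (log2 difference 3.71, standard error 0.67, adjusted p = 0.011), a call that was lost without Del(sub-TAD1) replicate 1 (adjusted p = 0.11) and when all wild-type libraries entered the fit (adjusted p = 0.067). Chrd stood at 1.05 and 0.871 FPKM in Del(CBS1-5), and Del(sub-TAD1) was 2.17 higher on the log2 scale (adjusted p = 0.0011). Akr1e1, Oip5, H2-Bl and Dcpp3 passed as well, with the sign they had against wild type. Spink1, by contrast, stood at 14.5 and 10.9 FPKM in Del(CBS1-5) and 11.2 and 10.4 in Del(sub-TAD1), a difference of -0.22 (standard error 0.74, adjusted p = 1.0). On the scale of FPKM + 0.1, the lines differed 1.54-fold in Krt8, 2.24-fold in Cldn6 and 4.26-fold in Foxa1. Against wild type these genes differed 6.45-fold, 7.01-fold and 7.51-fold. By limma, Pmaip1 and Col3a1 did not pass (adjusted p = 0.096 and 0.088). Of the 117 genes shared by both stages, 51 passed, 49 of them with the sign they had against wild type.

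The effect differed between stages in 142 genes (0.917%), 64 of them with a higher and 78 with a lower value at 120 h than at 96 h. Stage and library set changed together, so that they cannot be told apart in this contrast. In 66 of the 142 genes (46.5%) the wild-type libraries of the 2 sets at 96 h differed at least 2-fold, against 21.5% of all genes tested and 6 of the 117 shared genes (5.13%). The matched wild type at 96 h enters both this difference and the contrast that picked the 142 genes, so these shares are not independent of that choice. Pseudogenes, by GENCODE vM21, made up 56 of the 142 (39.4%) and 197 of the 583 genes higher at 96 h (33.8%), against 16.9% of all genes tested and 9 of the 226 genes higher at 120 h (3.98%). The part of the library set in these calls was not tested. Without replicate 1 of Del(sub-TAD1) at 96 h the count was 1359, without replicate 4 of the wild type 471, without time-course replicate 2 it was 211 and without wild-type replicate 3 at 120 h 221. It was 94, 89, 89, 88 and 78 without mutant replicate 3 at 96 h, either mutant library at 120 h and wild-type replicates 1 and 2 at 120 h.

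Of the named genes in this contrast, Nepn, which encodes nephrocan, a secreted protein of the foregut and hindgut endoderm, changed most. It stood at 85.1 and 63.8 FPKM in the mutant at 120 h against 0.474, 0.268 and 2.12, and at no more than 0.481 in all 6 libraries at 96 h (difference between stages 6.38, standard error 0.95, adjusted p = 0.0055). In the wild-type time course Nepn stood at 40.1 and 0.810 FPKM at 120 h and at 44.4 and 26.3 at 144 h, so that 1 wild-type pool at 120 h was near the mutant. Its call was lost with all wild-type libraries (adjusted p = 0.30). The neurofilament gene Nefm went both ways, with 0.394, 0.340 and 0.308 FPKM at 96 h against 1.39, 1.79 and 0.905. In the 120 h libraries it stood at 12.7 and 12 FPKM against 2.36, 2.99 and 3.22. Wt1 did the reverse, with 0.433, 0.269 and 0.420 FPKM at 96 h against 0.0821, 0.0394 and 0.148. The values at 120 h were 1.52 and 1.83 FPKM against 6.35, 6.21 and 4.17. Myl3, a myosin light chain gene, was listed at 0 in 46 of the 56 libraries other than Del(sub-TAD1) and at 8.94 and 6.98 FPKM in the mutant at 120 h. In the time course it was listed at 0 at all stages but 144 h, at which it stood at 5.60 and 8.72 FPKM. As with Oip5, its 0 may be a failed estimate, and the difference between stages rests on such values.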

How the data were processed

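Stembryo libraries were poly-A selected and stranded. Per the labels and the paper's methods, the authors used cutadapt 1.16 for trimming and STAR 2.7.7a for alignment on mm10, retained uniquely mapped reads, and obtained FPKM from Cufflinks 2.2.1 with a custom annotation built from Ensembl. The deposited FPKM table gives no read numbers, and an exact 0 in it can be a failed estimate, so that it is called "listed at 0". In the low set, 97.7% to 98.3% of low values were whole fragments within 0.05, and in the high set 69.2% to 71.8%, from which depth was inferred. The origin of the difference between the sets is not given in the sources used here.

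Log2(FPKM + 0.1) of 18 libraries in 7 groups was fitted with limma 3.58.1 in R 4.3.3, without further scaling, over genes with a mean of at least 1 FPKM in a group. Beside the 11 libraries these were both Del(CBS1-5) libraries of each stage and wild-type replicates 1 to 3 at 96 h. P-values are two-sided and were adjusted by the Benjamini-Hochberg method per comparison over all genes, at 0.05. The fit was also run on simulated data with independent normal noise around group means. That setting holds no library that departs from its group over many genes, and no result given here rests on it. Other software was Python 3.11.15 (with scipy 1.17.1, numpy 2.4.6, pandas 2.3.3), the R package data.table, and matplotlib 3.10.9 for the figures. The alternatives were other pseudocounts, filters, scalings and controls, a replicate block, and leaving out libraries.

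The samples compared, the lists and the genes were chosen with earlier results of these data known. Genes were named as members of 27 lists or as neighbours of HoxD. Further genes had a group mean of at least 5 FPKM and were the 12 that rose most and the 12 that fell most at both stages without overlap, by the smaller of their 2 changes, the 6 largest in each direction for the stage difference, and the 5 largest in each direction against Del(CBS1-5) within the same pool. Gene models without a name were only counted, and some results are not reported here.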

Additional observations from a re-analysis of the deposited data

Results flagged for a closer look

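The effect of Del(sub-TAD1) differed between 96 h and 120 h by the test of that difference in 21 of the genes named in the text. Over all genes tested, 142 of 15481 passed it (0.917%). The 6 largest in each direction by this same test were named for that reason, so the count of 21 follows in part from the choice of genes. Values are the log2 fold change at 120 h minus that at 96 h, and stage and library set cannot be told apart in them.

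Genes higher at 120 h relative to 96 h were led by Nepn (6.38), Myl3 (6.32), which is listed at 0 in all libraries of the comparison but both mutant ones at 120 h, and the near-copy genes Hmga1b (5.42), Rnps1-ps (5.04) and Atp6v0c-ps2 (4.88). Nefm (3.75), Neurog2 (2.99), Emcn (2.2), Magel2 (1.56), Pax1 (1.41), Cdh5 (1.22), Nkx3-2 (0.84) and Rpl26 (0.65) followed. In Rpl26, Hmga1b, Rnps1-ps and Atp6v0c-ps2 the mutant was lower at 96 h and lower by less at 120 h. In Magel2 it was lower at 96 h, and at 120 h the mutant libraries lay above the matched wild type.

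Against the matched wild type, genes lower at 120 h relative to 96 h were Wt1 (-3.0), Sec1 (-2.74), Hoxc10 (-2.69), Ndufs6b (-2.59), Gstp2 (-2.45), Gstt2 (-2.16), Hoxa10 (-1.63) and Hoxb1 (-1.03). Hoxc10 stood at or below 0.030 FPKM in all 6 libraries at 96 h, so its value rests on 120 h. The differences of Ndufs6b and Gstp2 turned with other wild-type controls, to 2.68 and 2.88 with all those outside the time course and to 2.40 and 3.18 with the time course. Leaving out 1 library ended the call of Sec1 in 8 cases, the libraries being mutant replicates 2 and 3 and both time-course replicates at 96 h and replicates 1 and 2 of both genotypes at 120 h (adjusted p between 0.067 and 0.17), and that of Gstp2 in 4, mutant replicate 3 at 96 h and, at 120 h, both mutant libraries and wild-type replicate 1 (adjusted p between 0.053 and 0.10).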

How the results depend on the processing

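Counts are given in the order 96 h, 120 h, both stages, stage difference, against Del(CBS1-5) at 120 h, and Del(CBS1-5) at 96 h, and those within 1.5 times are left out. With a pseudocount of 1 the last 2 were 668 and 631, and without a filter the fifth was 669. With a filter at 5 FPKM, 220 genes passed at 120 h, 88 for the stage difference and 279 against Del(CBS1-5). With all wild-type libraries outside the time course, 1336 passed at 96 h and 282 against Del(CBS1-5), and with the time course 113 passed at 120 h, 48 at both, 34 for the stage difference and 112 against Del(CBS1-5). With the 11 libraries alone the first 4 counts were 255, 153, 47 and 69, and with all 61 they were 3124, 1703, 543, 1068, 1787 and 2668. With a fold change of at least 2 they were 344, 182, 50, 264 and 130 without the stage difference. Without the 3 libraries picked out, an alternative chosen after seeing the data, they were 3196, 2066, 543, 2120, 1312 and 3323. With the genes at like levels in both wild-type sets, chosen likewise, 62 passed for the stage difference.

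The fit with the replicate number as a block gave 645, 194, 248, 700 and 1214 from the second to the last, and 1176 at 96 h. The same-numbered libraries correlated at -0.0643 to 0.101 in the 4 main pairs, so the numbers were not taken as pairs.

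Leaving out 1 library gave 427 to 2217, 127 to 739, 40 to 180, 78 to 1359, 144 to 652 and 182 to 666. Under 2 other scalings the 183 higher and 128 lower genes of Del(CBS1-5) at 96 h became 171 and 185 (upper quartile) and 180 and 170 (median of ratios).

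Of 3175 recomputed values of named genes, 2747 kept direction and call, 422 lost the call and 6 turned. These pooled counts hide wide differences between settings. With the 11 libraries alone, 50 of 121 values lost the call. With all wild-type libraries of the stage, time course included, 53 of 134 lost it and 2 turned, whereas with a filter at 5 FPKM 0 of 112 lost it. With all wild-type libraries outside the time course, Dnmt1 and Dnmt3a at 96 h became 0.041 and 0.13, and the stage differences of Gstp2 and Ndufs6b became 2.88 and 2.68, or 3.18 and 2.40 with the time course. The cause was not tested. The comparison of Del(CBS1-5) at 96 h was not computed with other controls, which would be shared, and neither it nor that at 120 h with the 11 libraries alone.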
